A study of Mus musculus with 4 samples.

Results

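The 8 genes described here, Gm4631, Zfp968, Zfp966, Gm14305, Gm14295, Gm14296, Gm14403 and Gm14325, lie in a zinc-finger gene cluster on distal mouse chromosome 2 and were taken from the 32285 genes counted in single muscle stem cells (MuSCs). They were chosen by their measured UMI counts in the 2 genotypes, which were nearly 0 in both α-cdKO samples in every cell class and above 0 in both control samples. The difference between genotypes is therefore what selected these genes, and it is given below as a description without a test. The level of the same genes in different cell states of the control samples played no part in the choice and was tested.

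Control mice were Pax7CreERT2/+;Rosa26-tdTomato. The α-cdKO mice were Ctnna1 fl/fl;Ctnna3 fl/fl;Pax7CreERT2/+;Rosa26-tdTomato, which removes αE-catenin and αT-catenin, the proteins that link cadherin complexes to actin. Both groups carried the same inducible Cre and reporter, were labelled C57BL/6J and 3 to 4 months old, received tamoxifen, and were sampled 14 days after it. Uninjured hindlimb muscle was dissociated, tdTomato+ cells were sorted, and droplet libraries of transcript 3′ ends were made from 2 samples per genotype, each a pool of 2 littermates of 1 genotype with 30000 cells loaded. CreERT2 is expressed from Pax7, so recombination is expected in MuSCs and their progeny. The 2 floxed loci are on chromosomes 18 and 10 and Pax7 is on chromosome 4, so none of the modified genes lies on chromosome 2. Whether control and α-cdKO mice came from the same litters is not given in the sources used here. Loss of α-catenins and any other DNA that differs between the 2 lines cannot be told apart in this design.

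Unique molecular identifiers (UMIs), which count captured transcripts, totalled 48515992 and 46099310 in control samples 1 and 2 and 73261352 and 74921651 in α-cdKO samples 1 and 2. In the same order 5484, 5354, 9786 and 8166 cells were kept, each with 1000 or more UMIs, 400 or more genes and a mitochondrial share below 15%. Median UMIs per kept cell were 7723.5, 8075, 6452.5 and 7682.5. Myogenic cells made up 96.3%, 84.3%, 96.1% and 97.8% of the kept cells, and control sample 2 held more mature-muscle-like cells than the others. α-cdKO sample 1 stood apart in a further way. It held 5013 cells with Xist and no Y-linked transcript beside 2915 cells with Y-linked transcripts and no Xist, whereas the other 3 samples held 0 or 1 cell of the first kind. Cells of the Y-linked kind numbered 4407 and 3809 in controls and 6503 in α-cdKO sample 2, beside 1064, 1539 and 1649 cells with neither marker. Between any pair of libraries 9 to 26 kept barcodes coincided, and 101 kept barcodes occurred in more than 1 library.

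The targeted genes did not serve as a check of the labels. Ctnna1 stood at 91.1 and 70.7 CPM (UMIs of the gene per 1e6 UMIs of the sample) in controls and 79.2 and 75.7 CPM in α-cdKO (log2 difference -0.11, SE 0.14, edgeR adjusted p = 0.859). Reads came from the transcript 3′ end, and whether that end lies within the deleted part of Ctnna1 was not tested. Ctnna3 gave 2 and 39 UMIs in controls and 13 and 14 UMIs in α-cdKO.

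KRAB zinc-finger proteins are a large and fast-evolving family of transcriptional repressors. Their tandem C2H2 fingers bind DNA, and the KRAB box recruits TRIM28 (KAP1), which brings in the H3K9 methyltransferase SETDB1, HP1 proteins and histone deacetylases. Many members silence transposable elements, and the genes sit in clusters of near-identical copies that expand, contract and differ between mouse strains. No function in MuSCs is stated here for any of the 8 genes.

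The copies resemble each other at their start sites, which is shown first because it bears on which genes of the region are alike. RefSeq promoter sequences (250 bases before to 50 bases after the start, GRCm38.p6) were found for 7 of the 8 genes, all but Gm14296. These 7 shared an identical block of 59 bases. The sequences below run 5′ to 3′ on each gene's own strand and end with the block, which is in capitals. The first 3 are from genes with nearly no UMIs in α-cdKO, and the last 2 are from neighbours that kept their UMIs there. Lower-case letters within the block mark bases that differ from it.
Gm4631: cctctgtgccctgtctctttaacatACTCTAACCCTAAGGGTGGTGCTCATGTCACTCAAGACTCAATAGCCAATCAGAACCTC
Gm14305: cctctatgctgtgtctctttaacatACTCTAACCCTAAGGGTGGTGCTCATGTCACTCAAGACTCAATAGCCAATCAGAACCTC
Gm14403: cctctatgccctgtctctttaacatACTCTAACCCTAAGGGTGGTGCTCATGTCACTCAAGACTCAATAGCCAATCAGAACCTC
Gm6710: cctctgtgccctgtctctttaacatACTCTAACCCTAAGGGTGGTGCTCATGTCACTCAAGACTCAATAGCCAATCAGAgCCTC
Zfp931: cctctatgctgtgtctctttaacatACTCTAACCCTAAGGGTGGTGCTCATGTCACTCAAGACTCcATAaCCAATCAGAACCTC

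In the order shown, the segments lie at chr2:175338295-175338378 (minus strand), chr2:176708179-176708262 (plus), chr2:177498072-177498155 (plus), chr2:175869136-175869219 (plus) and chr2:178078520-178078603 (minus). The exact block was held by 24 of 32851 promoters (0.0731%). These belonged to 22 genes, all in this region of chromosome 2. Of the other genes between the outermost of the 8, 13 of the 16 with a promoter sequence carried it. Gm6710 differed from the block at 1 base and Zfp931 at 2 bases. The block contains the letters CCAAT once. CCAAT, searched on both strands, occurred in 33.8% of all promoters. All 7 promoters hold it because they share the block, so the 2 figures are not compared.

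In GENCODE M21 transcripts the longest open reading frames held 13 C2H2 fingers for Gm4631, 11 for Zfp968, 11 for Zfp966, 14 for Gm14305, 25 for Gm14295, 9 for Gm14403 and 14 for Gm14325. Gm14296 was the exception. Its longest frame of 249 codons held 0 fingers. It is counted with the cluster for its position and for a 3′ end shared with 2210418O10Rik, another gene of the region. Because 3′ reads can fit several copies, the last 500 bases of each gene were searched in 90-base windows for exact matches to other genes. Gm4631 shared 0% of its windows with any other gene. The share was 18.0% for Gm14403, 25.1% for Gm14295, 37.2% for Zfp966, 63.5% for Gm14305 and 66.4% for Gm14325. It was 100% for Zfp968 and for Gm14296, the latter with 2210418O10Rik alone. Zfp973 also overlaps Gm14305 by 10758 bp on the same strand. Counts of the genes with high shares are uncertain, since a read that fits several genes is not counted. The search covered transcript ends only, and whether reads from introns were counted was not checked. The match was made to whole transcripts of other genes, and windows of Gm14305, Gm14295 and Gm14403 matched Gm4631 among others, so Gm4631 is not free of this limit either.

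The first question was how many UMIs of each gene were counted in the α-cdKO samples. Together the 8 genes gave 631 and 829 UMIs in controls and 5 and 8 UMIs in α-cdKO. This is 13.1 and 18.4 CPM against 0.0694 and 0.107 CPM, or 15.8 ± 3.72 CPM against 0.0884 ± 0.0268 CPM (SD, n = 2 samples each). The pooled rate was 177-fold lower in α-cdKO (95% counting interval 103 to 333). Intervals and floors here cover counting error only. Reads of a copy that differs from the reference may not be assigned to a gene. Whether this lowered the α-cdKO counts, here or in the neighbouring genes, was not tested. Groups of 2 samples could in any case not give an exact permutation p under 0.33.

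Gm14305, the most abundant of the genes (chr2:176708328-176721813, plus strand), gave 149 and 239 UMIs in controls and 0 and 1 in α-cdKO. Its control level was 3.10 and 5.31 CPM, and the ratio of the genotypes was 611-fold (109 to 24191). Gm4631 (chr2:175321955-175338197, minus strand), the leftmost, gave 121 and 131 UMIs in controls and 1 and 0 in α-cdKO, a ratio of 397-fold (70.6 to 15733). Gm14296 (chr2:176892509-176927809, minus strand) gave 99 and 122 UMIs in controls and 2 and 2 in α-cdKO, a ratio of 87.0-fold (33.5 to 322). Gm14403 (chr2:177498215-177509763, plus strand) gave 81 and 81 UMIs in controls and 2 and 4 in α-cdKO, a ratio of 42.5-fold (19.1 to 118).

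Zfp966 (chr2:175918881-175931100, minus strand) gave 40 and 30 UMIs in controls and 0 and 1 in α-cdKO, a ratio of 110-fold (19.1 to 4415). The remaining 3 genes were at 0 UMIs in both α-cdKO samples, so that only a lower limit of the ratio can be given, taken against a floor of 3 UMIs over the group. Gm14295 (chr2:176798612-176811223, plus strand) gave 60 and 110 UMIs in controls and was at least 89.2-fold lower. Gm14325 (chr2:177831791-177840336, minus strand), the rightmost, gave 46 and 71 UMIs and was at least 61.4-fold lower. Zfp968 (chr2:175372436-175384201, plus strand) gave 35 and 45 UMIs and was at least 42-fold lower. For none of the 8 genes did the groups overlap. The lowest control count was 30 UMIs and the highest α-cdKO count was 4 UMIs.

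**Figure D1:**
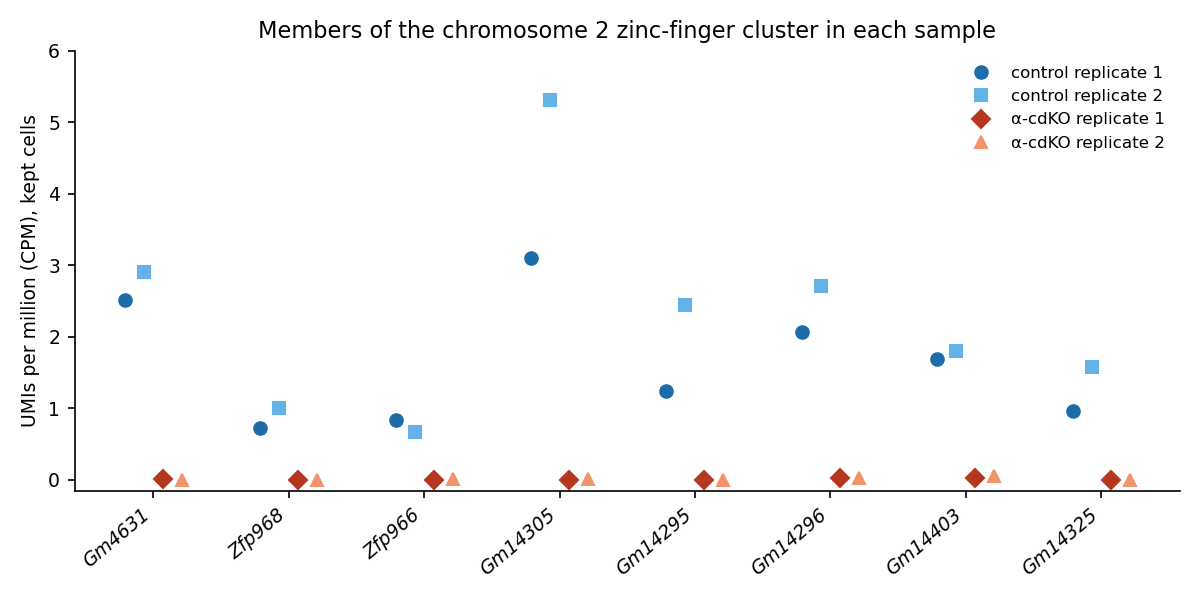
Level of each gene (x axis, chromosome order) in each sample (y axis, CPM over kept cells). Each point is 1 sample. Control points run from 0.666 to 5.31 CPM and every α-cdKO point lies at the bottom of the plot.

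The genes are ordered here by counted CPM, with the part of reads that fit several copies unknown. Whether the counts depend on gene length was not tested. Gm14305 lay above Gm4631, and Gm14403 lay above Gm14325, in both control samples without overlap. Gm14325 shares more of its 3′ end with other genes than Gm14403 does (66.4% and 18.0% of windows), so uncounted reads could give the second of these orders. The other neighbours in the order (Gm4631, Gm14296, Gm14295 and Gm14403, and then Gm14325, Zfp968 and Zfp966) overlapped between samples and were not separated. For 7 of the 8 genes the level was higher in control sample 2 than in control sample 1. The ratio of sample 2 to sample 1 ran from 0.80 for Zfp966 to 1.95 for Gm14295. Control sample 2 also held the larger share of mature-muscle-like cells, in which the summed CPM was highest. Per 1000 control cells the order differed, with 485 UMIs in differentiated-like, 333 in cycling-like, 237 in immune-like, 229 in mature-muscle-like and 224 in quiescent-like cells. Their part in the difference between controls was not tested. Within classes the summed level in controls 1 and 2 was 8.34 and 8.08 CPM in activated-like cells and 12.8 and 12.3 CPM in a chaperone-led cluster, but 28.2 and 36.6 CPM in quiescent-like, 22.3 and 30.4 CPM in differentiated-like and 12.1 and 21.5 CPM in cycling-like cells.

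The residual α-cdKO UMIs were single molecules. The 13 UMIs fell in 13 kept cells, 1 in each, and among all deposited barcodes there were 14 such cells. None of those 14 barcodes occurred in a control library. In controls 1120 kept cells held UMIs of 1 of the genes, 103 cells of 2 genes, 11 cells of 3 and 1 cell of 4, while 9603 cells held none. In α-cdKO 17939 cells held none.

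The genes were also near 0 in both kinds of cell of the pooled α-cdKO sample 1. In α-cdKO sample 1 the Xist-positive cells gave 3 UMIs (0.0735 CPM) and the Y-linked cells gave 2 UMIs (0.106 CPM). The Y-linked cells of α-cdKO sample 2 gave 5 UMIs (0.0788 CPM). The Y-linked cells of the controls gave 510 and 583 UMIs (12.3 and 15.9 CPM). The Y-linked cells of both α-cdKO samples thus lay below the Y-linked cells of both controls. The controls held 1 kept cell with Xist and no Y-linked transcript, so the Xist-positive cells had no control of their own kind.

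Near-absence in every cell class of α-cdKO was part of the choice, and the values by class are given as a description. Cells were clustered without the 8 genes or any other gene of the region, and the classes were named from markers. The quiescent-like cluster was led by the immediate-early and stress genes Fos, Jun and Hspa1a beside Hes1, and the activated-like cluster by Cxcl3, Cxcl2, Cxcl5 and Dio2. In the mature-muscle-like cells that were set aside from the myogenic cells the genes summed to 46.4 and 53.1 CPM in controls and 0 UMIs in α-cdKO, where 102 UMIs would have been counted at the control rate. Quiescent-like cells held 28.2 and 36.6 CPM in controls and 1 UMI in α-cdKO against 561 at the control rate. Differentiated-like cells held 22.3 and 30.4 CPM in controls and 0 UMIs in α-cdKO against 166. Cycling-like cells held 12.1 and 21.5 CPM in controls and 0 UMIs in α-cdKO against 157. These classes thus differed in control level, and each was at or near 0 in α-cdKO.

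The largest classes held the remaining α-cdKO molecules. The unnamed myogenic cluster led by chaperone genes (Dnaja4, Dnaja1, Hsph1) held 12.8 and 12.3 CPM in controls and 3 UMIs in α-cdKO against 690 at the control rate. Activated-like cells held 8.34 and 8.08 CPM in controls and 9 UMIs in α-cdKO against 455. A small cluster with muscle genes among the myogenic cells held 11.8 and 13.8 CPM in controls and 0 UMIs in α-cdKO against 17.1. In every class the counted CPM of both controls was above that of both α-cdKO samples.

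Cells outside the myogenic lineage were few. Endothelial-like cells held 19.2 and 14.4 CPM in controls and 0 UMIs in α-cdKO against 14.9 at the control rate. Immune-like cells held 12.3 and 38.1 CPM in controls and 0 UMIs in α-cdKO against 16.7. For immune-like cells of α-cdKO sample 2 the floor of 3 counts is 12.9 CPM, so that sample is not separated from control sample 1. Endothelial-like cells numbered 74 in controls and 104 in α-cdKO, and immune-like cells numbered 59 and 75. Pax7 drives the Cre in MuSCs, and whether Cre had acted in the sorted endothelial-like and immune-like cells was not tested.

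**Figure D2:**
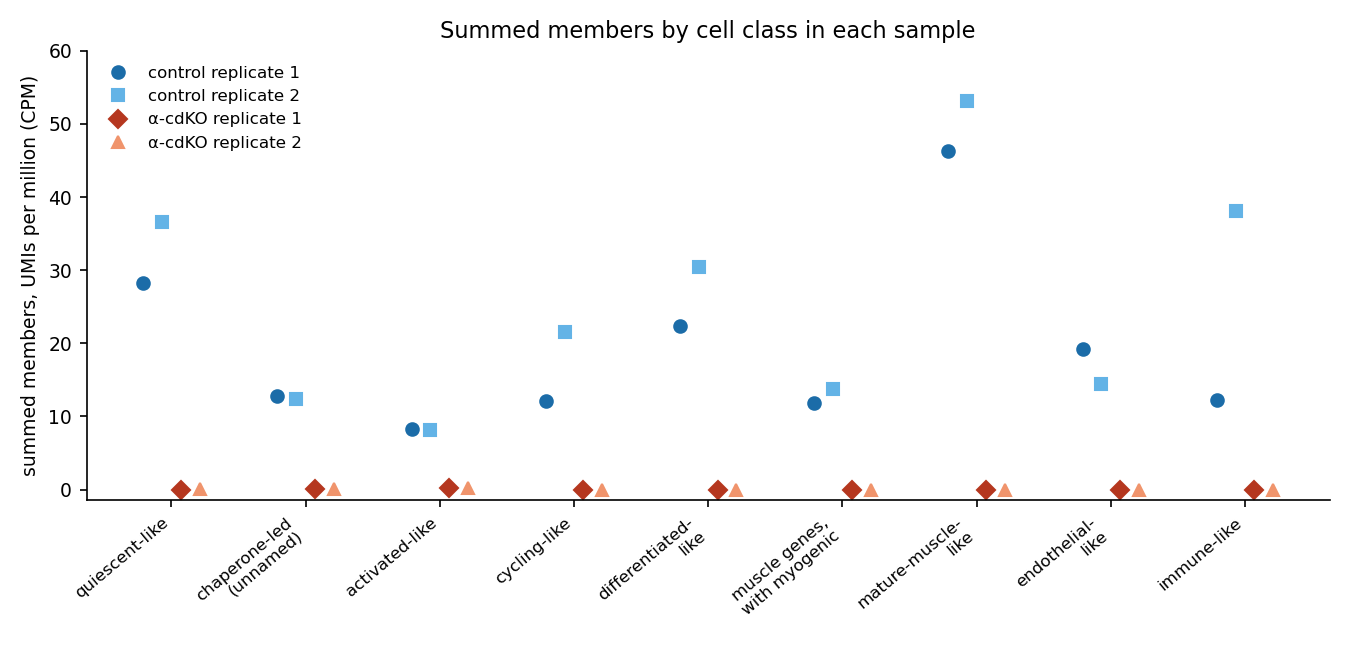
Summed level of the 8 genes (y axis, CPM) in 9 cell classes (x axis), 1 point per sample. Controls run from 8.08 CPM in activated-like cells to 53.1 CPM in mature-muscle-like cells, and α-cdKO samples lie at or near 0 in each class.

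In controls the genes were graded by cell state, and this comparison was independent of how they were chosen. The quiescent-like class was named from 7 raised marker genes. Its cells held 3.38 times (counting interval 2.71 to 4.22) the summed CPM of activated-like cells in control sample 1. In control sample 2 the ratio was 4.53 (3.66 to 5.63). Per cell rather than per UMI the ratios were 2.65 and 3.70, since activated-like cells carried more UMIs. All 8 genes were higher in quiescent-like than in activated-like cells in both samples. For none did the 2 quiescent-like values overlap the 2 activated-like values. How many of all genes were also without overlap was not counted, so nothing is read from this. The values of Zfp966 rest on 10 and 6 UMIs in quiescent-like and 15 and 4 UMIs in activated-like cells.

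Gm14305 measured 7.42 and 11.1 CPM in quiescent-like cells and 1.89 and 1.72 CPM in activated-like cells of controls 1 and 2. In edgeR's quasi-likelihood test over 12330 genes, activated-like minus quiescent-like, its log2 difference was -1.98 (SE 0.29, adjusted p = 1.85e-07). Gm4631 measured 7.23 and 6.84 CPM in quiescent-like and 1.34 and 1.49 CPM in activated-like cells, a log2 difference of -1.98 (SE 0.33, adjusted p = 1.69e-06). Gm14295 measured 3.52 and 4.71 against 0.599 and 1.07 CPM, a log2 difference of -1.99 (SE 0.44, adjusted p = 0.000143). These 3 genes were about equally lower in activated-like cells.

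Gm14403 measured 2.78 and 4.71 CPM in quiescent-like and 1.11 and 0.654 CPM in activated-like cells, a log2 difference of -1.77 (SE 0.44, adjusted p = 0.000558). Gm14296, the gene without fingers in its longest frame, measured 2.60 and 4.41 against 1.52 and 0.892 CPM, a log2 difference of -1.23 (SE 0.42, adjusted p = 0.0107). It lost its call with DESeq2 (adjusted p = 0.0789). Zfp968 measured 1.48 and 1.98 against 0.507 and 0.832 CPM and did not pass the test (log2 difference -1.05, SE 0.54, adjusted p = 0.0863), although it did with RLE scaling (adjusted p = 0.0329). Gm14325 measured 1.30 and 1.98 against 0.691 and 1.19 CPM and did not pass (log2 difference -0.48, SE 0.51, adjusted p = 0.416). Zfp966, with 10 and 6 UMIs in quiescent-like and 15 and 4 UMIs in activated-like cells, was too rare for the filter on low counts.

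Thus 5 of the 8 genes fell and 0 rose from quiescent-like to activated-like cells, 7 having passed the filter. Over all genes tested 33.4% fell and 31.7% rose. The median log2 difference was -1.77 for the 7 genes and -0.09 for all genes. With RLE scaling the median over all genes moved to -0.34 and that of the 7 genes to -2.02. The count of all genes changed from 3905 higher and 4121 lower to 3031 higher and 5186 lower, and 6 of the 8 genes fell. The 2 control samples are pools of mice, so p-values reflect 2 pools.

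**Figure D3:**
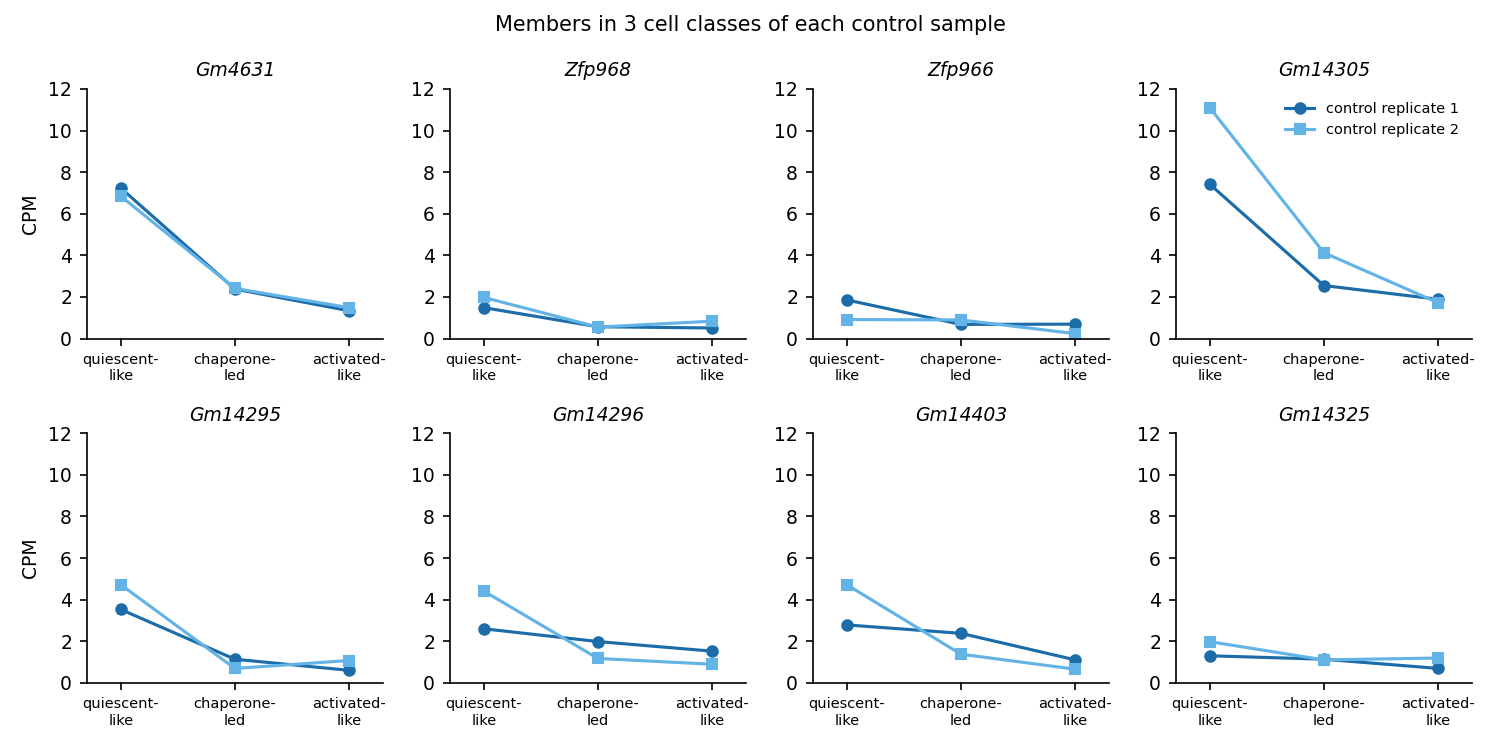
Level of each of the 8 genes (y axis, CPM) in quiescent-like, chaperone-led and activated-like cells (x axis) of the 2 control samples, 1 line per sample. Each line falls from quiescent-like to activated-like cells, from 7.42 to 1.89 CPM and from 11.1 to 1.72 CPM for Gm14305.

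The chaperone-led cluster lay between these states for the summed genes. Quiescent-like cells held 2.20 and 2.98 times its summed CPM in controls 1 and 2. Per cell the ratios were 1.32 and 2.11. In this comparison, which was added after the data had been seen, 5 of the 7 genes tested were lower in chaperone-led cells. Of all genes tested 22.4% were lower. The log2 differences of Gm4631, Gm14305 and Gm14295 were -1.34, -1.27 and -1.91 (edgeR adjusted p = 0.000478, 0.000202 and 0.000444). Zfp968 (-1.38, adjusted p = 0.0418) and Gm14296 (-0.98, adjusted p = 0.0494) passed narrowly. Both were lost with DESeq2 (adjusted p = 0.0995 and 0.197) and in edgeR without the filter on low counts (adjusted p = 0.0993 and 0.0728). Zfp968 stood at 1.48 and 1.98 CPM in quiescent-like but 0.566 and 0.550 CPM in chaperone-led cells. Its passing of that filter may therefore rest on quiescent-like cells. Gm14403 (-0.82, adjusted p = 0.0881) and Gm14325 (-0.31, adjusted p = 0.646) did not pass.

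Shares of cells with at least 1 UMI of any of the genes were compared after cells were thinned to 2000 UMIs. Cells with fewer UMIs were left out, unevenly by class. In control sample 2 these were 247 of 788 mature-muscle-like cells and 80 of 107 cells of the small cluster with muscle genes. In control sample 1 they were 36 of 122 and 0 of 55. In quiescent-like cells the share was 6.25% (exact interval 4.69 to 8.14, 51 of 816 cells) in control sample 1 and 7.05% (5.46 to 8.94, 63 of 893 cells) in control sample 2. In chaperone-led cells it was 2.3% and 2.0%. In activated-like cells it was 1.44% (1.02 to 1.97) and 1.65% (1.12 to 2.33). The intervals of quiescent-like and activated-like cells did not overlap in either sample. The smaller classes went both ways in controls 1 and 2. Shares were 10.5% and 10.5% in mature-muscle-like, 6.98% and 7.41% in endothelial-like, 6.67% and 5.48% in cycling-like, 3.03% and 8.33% in immune-like and 2.13% and 2.5% in differentiated-like cells, and 0% and 3.70% in the small cluster with muscle genes. Most of these rest on few cells, as in cycling-like cells of control sample 1 (2 of 30, exact interval 0.818 to 22.1). The differentiated-like shares rest on 1 of 47 and 2 of 80 cells. At 4000 UMIs per cell they were 8.70% and 6.41%, against 4.67% and 4.20% in chaperone-led cells.

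Over all kept cells the thinned share was 2.65% (143 of 5406 cells) and 3.84% (190 of 4949 cells) in controls. In α-cdKO sample 1 the share was 0 of 9551 cells, for which the floor of 3 counts is 0.0314% and the exact upper limit 0.0386%. In α-cdKO sample 2 it was 2 of 8097 cells, or 0.0247%. Without thinning, the mean share was 11.4% in controls and 0.0745% in α-cdKO. No control cell type is known to lack these genes, so the control shares have no background share beside them, and the part of free RNA in them was not tested.

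**Figure D4:**
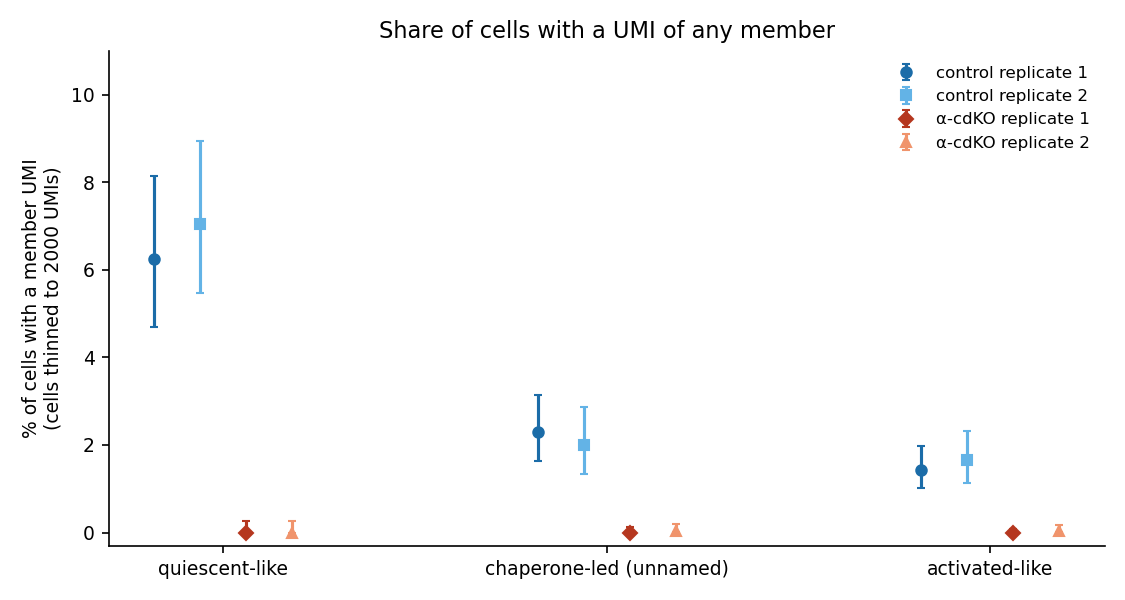
Percent of cells with a UMI of any of the 8 genes after thinning to 2000 UMIs (y axis) in 3 cell classes (x axis) of the 4 samples. Cells with fewer UMIs were left out. Points are samples and bars are exact 95% intervals. Of these 3 classes, quiescent-like cells have the highest control shares, 6.25% and 7.05%, and α-cdKO shares lie at or near 0.

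The region around the 8 genes was then examined gene by gene. The stretch from the start of Gm4631 to the end of Gm14325 spans 2518382 bp and holds 35 genes in the files, 34 of them protein coding. The 8 genes thus have 27 neighbours within it. Of these, 12 had at least 10 UMIs in controls, and 10 of the 12 were at 10% or less of their control rate in α-cdKO, counting 373 UMIs in controls and 4 in α-cdKO. The background is 0.459% of 16109 genes. A further 8 neighbours had 1 to 9 control UMIs, 6 of them with 0 in α-cdKO, and 7 were at 0 in both genotypes.

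Neighbours with 0 UMIs in α-cdKO included Gm14418 (13 and 44 UMIs in controls), Gm14322 (14 and 41) and Zfp973 (21 and 33, with the overlap described above). Gm14419 kept 2 and 1 UMIs against 13 and 30 in controls. Within the stretch 2 of the 12 genes were above the 10% limit. Gm6710, a zinc-finger gene with 16 fingers between Zfp968 and Zfp966, gave 85 and 88 UMIs in controls and 136 and 119 UMIs in α-cdKO (log2 difference -0.03, SE 0.22, edgeR adjusted p = 0.978). Zfp967 gave 17 and 14 UMIs in controls and 3 and 3 in α-cdKO, a lower rate that missed the limit. Along the reference order, Gm6710 thus interrupted the run of genes with few or no UMIs in α-cdKO.

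On the right, genes without UMIs in α-cdKO were found past the last of the 8 genes. Gm14326, which among the unchosen genes of the region with 0 UMIs in α-cdKO had the most control UMIs, gave 36 and 106 UMIs in controls and 0 and 0 in α-cdKO. Zfp971 gave 23 and 58 UMIs in controls and Gm14327 gave 7 and 23, both with 0 and 0 in α-cdKO. The next gene, Zfp931, with 7 fingers, gave 202 and 269 UMIs in controls and 289 and 353 in α-cdKO (log2 difference -0.11, SE 0.20, edgeR adjusted p = 0.916). Zfp972, between Gm14327 and Gm14326, was at 0 UMIs in controls and 1 and 1 in α-cdKO, too few to place. The first gene to the right with more than a few UMIs in α-cdKO was thus Zfp931.

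On the left all neighbours with at least 10 control UMIs were present in α-cdKO. Gm14391 gave 13 and 10 UMIs in controls and 21 and 17 in α-cdKO (log2 difference 0.04, SE 0.43). Gm14443 gave 19 and 19 against 33 and 44 UMIs (0.45, SE 0.36), and the noncoding Gm14616 gave 6 and 12 against 7 and 19 (-0.11, SE 0.66). Edn3, which encodes endothelin 3 and is the farthest of the 10 genes on this side, stood at 35.3 CPM pooled in controls and 32.3 CPM in α-cdKO. None of these differences passed the test. The boundary on this side thus fell between Gm14391 and Gm4631, with Gm14440 between them at 0 UMIs in all samples.

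**Figure D5:**
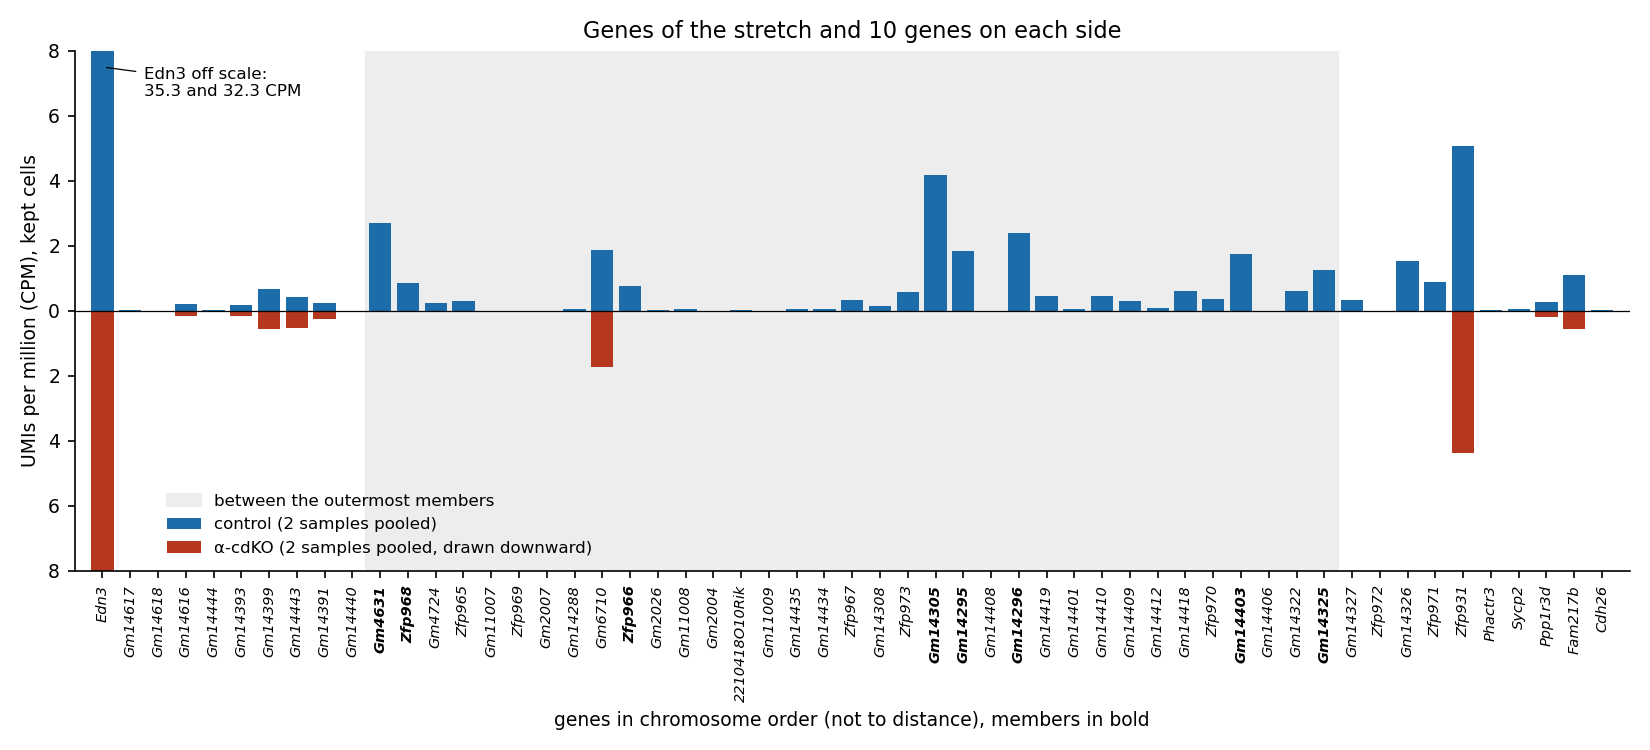
Genes of the stretch and the 10 genes on each side in chromosome order (x axis, not to distance). Bars show pooled CPM over kept cells, controls upward and α-cdKO downward. The 8 genes are in bold and the stretch between them is shaded. Within it, Gm6710 is the gene with a clear α-cdKO bar, and Zfp931 to its right and Edn3 to its left have bars in both genotypes, those of Edn3 running past the end of the axis.

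In the edgeR test of genotype over all myogenic cells 25 of 14634 genes (0.171%) passed. Of these 15 were lower in α-cdKO (0.103%), all 8 chosen genes among them, from which nothing is read because this contrast chose them. Of the 18 other tested genes in the stretch and the 10 genes on each side, 0 passed (lowest adjusted p = 0.0672, Gm14326). DESeq2 called 8 of the 18, 6 of them in the stretch, against 114 of all 18624 genes it tested. Of the 9 tested in the stretch, 8 had an unadjusted edgeR p under 0.05, against 1028 of all 14634 genes. These neighbours are described by their UMIs and not called.

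A rule on UMIs alone, added after the data had been seen, was applied to the whole genome. Of 13957 genes with at least 30 control UMIs, 21 (0.150%) were at least 20-fold lower in α-cdKO. These 21 also had to have 5 or more UMIs in each control sample. The 8 genes are among them by their choice. Of the other 13 genes, 9 lay in the stretch or within 10 genes of it, 6 of them in the stretch itself. The remaining 4 lay on 4 chromosomes, Fcnb on a distant part of chromosome 2. They were Gm10371 (938 and 657 against 70 and 54 UMIs), Krt81, a hair keratin gene (10 and 38 against 0 and 0), Fcnb, a ficolin gene (20 and 26 against 0 and 2), and Usp9y, on the Y chromosome (58 and 24 against 0 and 0). In the opposite direction 11 genes on 9 chromosomes were at least 20-fold higher in α-cdKO, 0 of them near the stretch. Among the 11 are Xist (13 and 8 UMIs in controls, 74279 and 14 in α-cdKO) and Tsix (6 and 4 against 7085 and 10), which qualified through α-cdKO sample 1 alone. Away from the stretch no chromosome held more than 1 gene of the lower kind or 2 of the higher kind.

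The genes that stayed present in α-cdKO allowed the cell-state grading to be read in both genotypes. Zfp931 measured 10.0 and 11.7 CPM in quiescent-like and 2.39 and 2.26 CPM in activated-like cells of controls 1 and 2 (log2 difference -1.88, SE 0.26). In α-cdKO samples 1 and 2 it measured 8.81 and 10.2 CPM in quiescent-like and 2.43 and 3.03 CPM in activated-like cells. Gm6710 measured 4.08 and 3.80 against 1.06 and 0.892 CPM in controls (log2 difference -1.66, SE 0.41, edgeR adjusted p = 0.000512). In α-cdKO it measured 3.83 and 3.57 CPM in quiescent-like and 1.27 and 0.721 CPM in activated-like cells. Both neighbours were thus higher in quiescent-like than in activated-like cells in each of the 4 samples. So were Edn3 on the left and Fam217b on the right. Gm14399, on the left, went the other way in α-cdKO sample 2, with 0.432 CPM in quiescent-like and 0.505 CPM in activated-like cells (4 and 14 UMIs). In the other samples Gm14399 was higher in quiescent-like cells.

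Of the 8 other genes of the stretch and its flanks that could be tested for cell state in controls, 6 were lower in activated-like cells, against 33.4% of all genes tested, and the same 6 were lower with RLE scaling, against 42.1%. Besides Zfp931 and Gm6710 these were Edn3 (-1.69, SE 0.14), Fam217b (-2.14, SE 0.65), Zfp971 (-1.82, SE 0.56) and Gm14326 (-1.32, SE 0.53). Gm14399 (-0.18, SE 0.67) and Gm14410 (-1.17, SE 0.76) did not pass. The 2 genes Zfp971 and Gm14326, at 0 UMIs in α-cdKO but outside the chosen set, were therefore also higher in quiescent-like cells.

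Other zinc-finger genes of the genome were followed for comparison. Of 358 genes named Zfp and a number outside the stretch, 305 were tested for genotype. By edgeR 0 passed and 18 had an unadjusted p under 0.05, against 25 and 1028 of all 14634 genes tested. DESeq2 called 114 of all 18624 genes it tested. Of these zinc-finger genes it called 2, Zfp971 of the flank, which was lower in α-cdKO, and Zfp69, which was higher (log2 difference 2.73, SE 0.75, DESeq2 adjusted p = 0.0455). The median log2 difference was 0.00 for these genes and -0.01 for all genes. The largest falls among genes of at least 10 CPM were those of Zfp608 (-0.60, SE 0.21), Zfp462 (-0.45, SE 0.15) and Zfp746 (-0.44, SE 0.17). The largest rises were those of Zfp560 (0.44, SE 0.18), Zfp207 (0.38, SE 0.13) and Zfp945 (0.33, SE 0.19), and none of the 6 passed adjustment. Below that level Zfp982, on chromosome 4, was at 0 and 0 UMIs in controls and 7 and 24 UMIs in α-cdKO, and is 1 of the 11 genes at least 20-fold higher there; it was named after its values were seen.

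Between cell states of controls 264 of these zinc-finger genes were tested, of which 115 were lower (43.6%) and 57 higher (21.6%) in activated-like cells, against 33.4% and 31.7% of all genes tested. Their median log2 difference was -0.48, against -0.09 for all genes and -1.77 for the 7 tested of the 8. With RLE scaling 135 were lower (51.1%) and 42 higher (15.9%), against 42.1% and 24.6% of all genes. Whether the family differs from other genes was not tested.

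The corepressors with which KRAB zinc-finger proteins act were counted from a list of 20 genes. By genotype 0 of 20 passed in edgeR, 0 had an unadjusted p under 0.05 and DESeq2 called 0. Over all genes 25 of 14634 passed in edgeR, 1028 had an unadjusted p under 0.05, and DESeq2 called 114 of 18624. With 20 genes, counts of 0 do not set the list apart from all genes. The log2 differences ran from -0.23 for Chd3, a NuRD remodeller, to 0.71 for Uhrf1, a DNA methylation factor of dividing cells. Trim28, the corepressor itself, differed by 0.03 (SE 0.12).

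Between cell states in controls 19 of the 20 were tested, of which 8 were higher (42.1%) and 4 lower (21.1%) in activated-like cells, against 31.7% and 33.4% of all genes tested. With RLE scaling 5 were higher (26.3%) and 9 lower (47.4%), against 24.6% and 42.1% of all genes, and the median moved from 0.24 to -0.01. Among those higher in both scalings were the NuRD remodeller Chd4 (1.34, SE 0.14), Sumo2 (0.54, SE 0.13), which encodes a small protein modifier, and the DNA methyltransferase Dnmt1 (0.92, SE 0.23). Trim28 (0.50, SE 0.14, edgeR adjusted p = 0.00201), Atf7ip (0.36, SE 0.14) and Hdac2 (0.31, SE 0.13) were higher with TMM scaling and did not pass with RLE scaling, where their adjusted p were 0.117, 0.512 and 0.740.

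Lower in both scalings were the HP1 gene Cbx3 (-1.09, SE 0.14), Chd3 (-0.71, SE 0.19), the methyltransferase gene Setdb1 (-0.64, SE 0.22, adjusted p = 0.00932) and the retroelement silencing factor Resf1 (-0.43, SE 0.14). Smarcad1, Cbx1, Cbx5, Morc3 and Atrx did not pass with TMM scaling and were lower with RLE scaling. Hdac1 and Daxx passed in neither, and Uhrf1 was too rare for the filter. The list as a whole was not tested.

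Genes whose levels ran most like the summed 8 genes were sought by Pearson correlation over sums of cells per sample and class, on the scale of log2 (CPM + 5). Over 12 sums of the 2 control samples and 6436 genes, the nearest were Lyrm2 (r = 0.98), the ankyrin gene Ank1 (0.97), the sterol carrier gene Scp2 (0.97), the lysosomal scaffold gene Lamtor4 (0.97) and the signalosome gene Cops7a (0.96). These sums share libraries and classes. Over 27 sums of all 4 samples and 6535 genes the nearest was the mitochondrial leucyl-tRNA synthetase gene Lars2, at r = 0.81, followed by Gm42418 at 0.68. The sum is near 0 in all α-cdKO classes by the choice of the genes, so the 2 searches are not compared.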

How the data were processed

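Libraries were made with 10x Genomics 3′ v.3 chemistry. The deposited values are UMI counts per gene and barcode that the authors made with Cell Ranger 7.1.0 (version per the file headers) against GRCm38. The cell filter left 28790 of 31254 barcodes. The authors also used Seurat 4.0.3 per the labels. From these counts, kept cells were normalized, 2000 variable genes were chosen without the genes of the stretch and its flanks, 30 components were integrated by sample with a Harmony algorithm rewritten in R, and cells were clustered with Seurat 5.3.0 (Louvain, resolution 0.2). Classes needed at least 3 marker genes raised 1.5-fold. Mature-muscle-like, endothelial-like and immune-like clusters were set aside and the rest reclustered as myogenic. Scrublet (scanpy 1.11.5) marked 1, 4, 0 and 3 cells, too few to have worked, so doublets were kept and removal of 241, 229, 766 and 533 top-scoring cells was tried as an alternative.

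Counts were added up by sample, or by sample and class with at least 50 cells, and tested with edgeR 4.0.16 in R 4.3.3 (filterByExpr, TMM, quasi-likelihood F test, Benjamini-Hochberg threshold 0.05). DESeq2 1.42.0 was an alternative. The state model held class and sample. Planned contrasts with differentiated-like and cycling-like cells could not be fitted, because control sample 1 held 47 and 30 such cells. On simulated counts the genotype fit recovered 72.4% of 98 genes changed by 1 log2 unit and 97.0% of 100 changed by 2 (14664 genes tested). The state fit recovered 66.0% of 97 and 95.0% of 100 (12039 genes tested).

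The 8 genes and all lists were chosen with earlier results of these data known. Named beyond them were the 5 largest and 5 smallest genotype differences among tested neighbours, Zfp genes past adjusted p 0.05 or else the 3 largest rises and falls at 10 CPM or more, the corepressor list, of which some single genes are counted but not reported here, and the 5 genes most like the sum. Gene positions are those of GENCODE M21 (32235 of 32285 genes matched), and promoter sequences those of RefSeq. Exact counting intervals are at 95%, and shares use Clopper-Pearson intervals. The same replicate number was given to samples of both genotypes, but the deviations of same-numbered samples correlated at -0.23, so no block was used.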

Additional observations from a re-analysis of the deposited data

How the results depend on the processing

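The number of genes called by genotype, 25, was unstable. It was 114 with DESeq2, 13 without the filter on low counts and 0 over all kept cells (937 at an unadjusted p under 0.05, and 139 by DESeq2). Leaving out 1 sample gave 3 to 41 genes, with 3 without control replicate 2, 4 without control replicate 1 and 41 without α-cdKO replicate 2; the lone sample of a group is then assumed to vary like the others. With the replicate number as a block 21 genes were called, and with the pairing crossed, an alternative chosen after seeing the data, 165 genes were called. RLE scaling gave 25.

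The log2 ratio of the summed 8 genes between genotypes, -7.48, stayed between -7.42 and -7.43 over all barcodes, without top-scoring doublets and with TMM scaling, and between -7.83 and -7.20 with 1 sample left out. The mean share of control cells with a UMI, 3.24% at 2000 UMIs per cell, was 5.58% at 4000 UMIs and 11.4% without thinning, and 2.65% to 3.84% with 1 control left out. In α-cdKO 0.0124% became 0.0435% and 0.0745%, and 0% to 0.0247% with 1 sample left out. Cells with fewer than the 2000 or 4000 UMIs drawn were left out of the thinned shares.

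From quiescent-like to activated-like cells the log2 ratio of the summed genes, -1.98, lay between -1.75 and -1.98 under other clusterings, doublet removal and 2000 UMIs per cell, and was -2.18 and -1.76 without control 1 and control 2. Of the 8 genes 4 (DESeq2) to 6 (RLE) were called lower, against 4116 of 15169 and 5186 of 12330 of all genes tested. For chaperone-led cells, 3 of the 8 were called instead of 5 without the filter, without integration and with DESeq2. Of all genes tested, these settings called 2156 of 20821, 2218 of 12520 and 2317 of 13555 lower. RLE scaling moved the share of lower calls from 51.3% to 63.1% for activated-like and from 45.8% to 61.1% for chaperone-led cells. Depth limited Zfp966 most, with 10 and 6 UMIs in quiescent-like cells.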

Other observations

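Away from the stretch, 17 genes passed the edgeR genotype test in myogenic cells, 7 of them lower and 10 higher in α-cdKO. Lower were Samd4, an RNA-binding regulator of translation (209 and 191 CPM in controls, 86.5 and 74.0 CPM in α-cdKO), its overlapping antisense neighbour Gm10371, Npy1r, a neuropeptide Y receptor (2.87 and 3.07 against 0.0418 and 0.0559 CPM), Kbtbd11, Gm15270, Gm15261 and G530011O06Rik. Higher were Srpk2, a splicing factor kinase (29.5 and 26.3 against 89.8 and 96.6 CPM), Sycp1, a meiotic synaptonemal complex gene (0 and 0 against 3.80 and 2.05 CPM), Cdk5rap1, Adat2, Klhl33, Epb41l4a, 1500015A07Rik, Gm8797, AA465934 and Tpm3-rs7. By chromosome, 4 of the 17 lie on 14, 2 each on 3, 8, 10, 18 and X, and 1 each on 2, 5 and 11.

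By a further rule (no overlap, 8-fold with 1 CPM added and a mean of 5 CPM in the higher group), which none of the 8 genes is abundant enough to meet, 7 genes differed. Gm10371 was lower (20.2 and 15.6 against 0.976 and 0.755 CPM). Gm8797 (13.1 and 15.2 against 207 and 279 CPM), Tpm3-rs7 (6.04 and 4.83 against 123 and 70.3 CPM) and AA465934 (0.890 and 1.40 against 48.9 and 25.5 CPM) were higher. The granulocyte genes S100a8, S100a9 and Ngp met it through control sample 1 alone, where S100a8 stood at 104 CPM against 1.38 CPM in control sample 2.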
